A study of Homo sapiens with 12 samples.

Results

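Transcripts of fibroblast growth factors (FGFs) and their receptors were followed while human embryonic stem cells (ESCs) differentiated as embryoid bodies (EBs). The gene set held 10 genes, chosen by name: the ligands FGF2, FGF4, FGF8, FGF17 and FGF19, the intracellular factor FGF13, and the receptors FGFR1, FGFR2, FGFR3 and FGFR4. Probes were taken by the gene symbol in the platform annotation, which named 17 of the 48803 probes on the array for 9 of the 10 genes. No probe carried the symbol FGFR2 there, and its level was not analysed here. After a filter that kept probes detected on at least 4 of 12 arrays, 10 of the 17 probes and 8 of the 10 genes could be tested, and FGF4 was not among them. The whole table kept 15921 probes, which stood for 10562 named genes.

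The samples were 12 Illumina HumanWG-6 v3 bead arrays of SNUhES3, an established human ESC line, with 4 arrays per group. The first group was undifferentiated ESCs, kept on mouse STO feeder cells that had been made unable to divide, in serum-replacement medium with 4 ng/ml basic FGF. The other groups were EBs, floating aggregates detached from those cultures and grown in the medium lacking basic FGF for 1 week or for 2 weeks. All groups were this 1 cell line, and the labels name no altered gene. Nothing in them ties the 4 arrays of a group to independent cultures, and p-values then measure only the spread between arrays, which may be technical. The labels do not say whether feeder cells were removed before RNA was taken, and the part of mouse RNA in the ESC values was not tested. Loss of the added factor, departure from the feeder layer and growth as aggregates came together in this design and cannot be told apart.

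FGFs are secreted signals that bind receptor tyrosine kinases on the cell surface, together with heparan sulfate chains or, for the endocrine members, with Klotho proteins. The activated receptor recruits adaptor proteins and switches on the RAS-ERK and PI3K-AKT cascades, whose output includes feedback inhibitors. Human ESCs are grown with basic FGF, the protein product of FGF2, because this signal helps to keep them undifferentiated, while FGF8, FGF17 and FGF19 are known as signals that pattern the embryo. The arrays measured FGF2 transcripts, not the recombinant protein in the medium.

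Of the 10 genes, 5 matched an entry of the RefSeq promoter table (GRCh38.p14, 250 bases before to 50 after the entry's own start site). The entry whose start site lay nearest to the gene's annotated start was taken, and the 2 starts need not coincide. The 3 below were picked by hand with the results known: FGF2 and FGFR4 were lower in EBs than in ESCs, and FGFR3 was not. FGFR1, which was also lower in EBs, is not shown. They lie on the plus strand at chr4:122826581-122826880, chr5:177086665-177086964 and chr4:1793043-1793342. Each is printed 5′ to 3′, and capitals mark the GC box, GGGCGG on either strand (CCGCCC where it lies on the other strand).
FGF2: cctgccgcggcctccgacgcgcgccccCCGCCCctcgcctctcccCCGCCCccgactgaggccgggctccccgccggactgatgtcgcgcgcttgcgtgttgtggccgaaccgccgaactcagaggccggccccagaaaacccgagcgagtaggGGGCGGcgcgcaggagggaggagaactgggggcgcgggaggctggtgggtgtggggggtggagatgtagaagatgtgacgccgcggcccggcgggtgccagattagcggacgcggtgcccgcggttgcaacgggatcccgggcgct
FGFR4: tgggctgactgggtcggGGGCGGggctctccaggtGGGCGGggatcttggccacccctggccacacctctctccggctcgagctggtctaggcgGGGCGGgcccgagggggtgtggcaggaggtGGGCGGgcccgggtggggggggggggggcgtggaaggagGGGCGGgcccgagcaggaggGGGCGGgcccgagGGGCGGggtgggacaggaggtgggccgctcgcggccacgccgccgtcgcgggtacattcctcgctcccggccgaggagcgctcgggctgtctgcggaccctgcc
FGFR3: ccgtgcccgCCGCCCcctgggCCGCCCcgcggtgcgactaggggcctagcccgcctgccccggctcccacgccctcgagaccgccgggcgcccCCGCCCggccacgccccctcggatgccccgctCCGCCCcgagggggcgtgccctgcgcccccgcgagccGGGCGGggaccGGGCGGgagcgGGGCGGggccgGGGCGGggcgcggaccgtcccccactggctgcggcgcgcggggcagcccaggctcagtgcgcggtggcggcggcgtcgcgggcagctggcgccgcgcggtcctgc
The window of FGF2 held 3 GC boxes, that of FGFR4 held 7 and that of FGFR3 held 8, at GC contents of 74.7%, 78.7% and 86.3%. Of all 35116 promoters of the same length, 45% held at least 1 GC box. Neither TATAAA, found in 11.5% of all promoters, nor the octamer ATGCAAAT, found in 1.77%, occurred on either strand of these 3 windows. A letter match describes the sequence and shows no binding.

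Between 14045 and 15905 probes were detected per array, and mean signal lay between 718, on 2-week array 2, and 1092. In ESCs and 1-week EBs the numbers 1 and 2 marked similar arrays, as did 3 and 4, for reasons the labels do not give, so several differences are also given within these number pairs. All 9 markers of pluripotent cells were detected on every array, with a summed linear level of 114029 to 119074 in ESCs, 103016 to 116086 after 1 week and 96904.5 to 98428.7 after 2 weeks, and 1 of the 9 was called lower at each EB stage. Markers of several differentiated cell types were present in EBs, and their values stand beside the ligands. In such mixed bulk samples, fewer cells of a type and less RNA per cell cannot be told apart.

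Levels below are log2 values after background correction and quantile normalisation. A gene was called, and is described as having risen or fallen, at an adjusted p under 0.05 (limma, Benjamini-Hochberg over all kept probes) with a difference of at least log2 1, which is 2-fold. By its brightest probe, 3 of the 8 tested genes were called in 1-week EBs against ESCs, FGF17 and FGF19 higher and FGFR1 lower. Over all genes, 9.16% were called in that comparison, 6.09% higher and 3.07% lower. In 2-week EBs against ESCs, 5 of the 8 were called, FGF8, FGF17 and FGF19 higher and FGFR1 and FGFR4 lower, against 14.3% of all genes (8.27% higher and 6.02% lower). In 2-week against 1-week EBs only FGF8 was called among the 8, and it was higher, against 1.38% of all genes (0.881% higher and 0.502% lower). Over the kept probes, taken singly, the called shares were 8.85%, 14.1% and 1.28%. The adjusted p alone was passed by 7, 7 and 4 of the 8 genes, against 50.6%, 61.5% and 24.5% of all genes. The groups did not overlap for 7, 7 and 5 of the 8 genes in these 3 comparisons, against 48.5%, 55.5% and 31.9% of all genes. The median absolute difference of the 8 genes was 0.86, 1.34 and 0.33, against 0.27, 0.34 and 0.16 over all genes. FGF8 and FGF17 were undetected in ESCs and passed the filter only through EB arrays, and the genes were chosen with earlier results of these arrays known, so these counts are a description. The first and second comparisons share the ESC arrays, and the third shares the EB arrays with them.

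**Figure D1:**
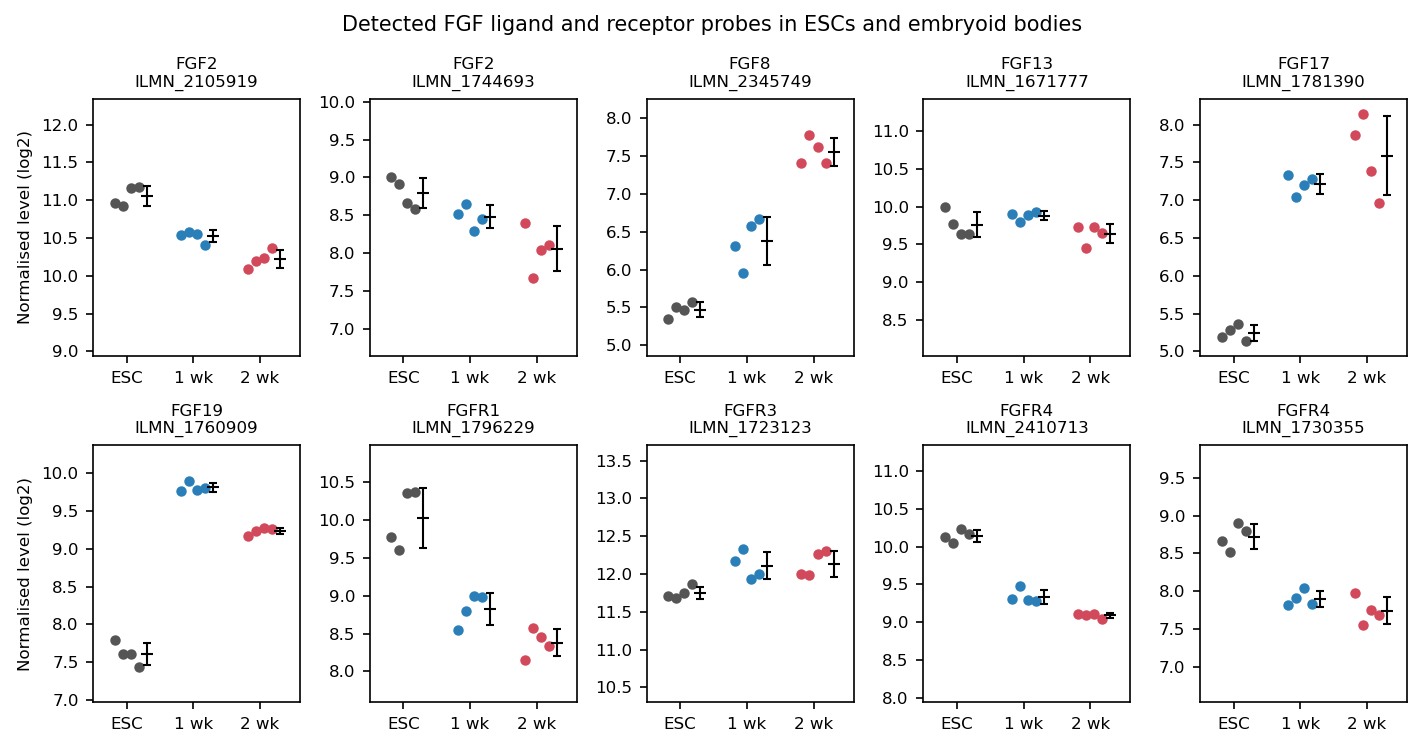
Normalised log2 level of each detected probe on each array (points, arrays 1 to 4 from left to right), with the group mean and SD beside them, in ESCs, 1-week EBs and 2-week EBs. FGF8 and FGF17 are lowest in ESCs, where they were undetected, FGF19 peaks at 1 week, and FGF2, FGFR1 and both FGFR4 probes are highest in ESCs. The vertical axes differ in position and do not start at 0.

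FGF2, the basic FGF that human ESCs themselves also transcribe, was lower in EBs of both ages than in ESCs, by less than 2-fold. Its brighter probe (ILMN_2105919) read 10.97, 10.93, 11.16 and 11.18 on the 4 ESC arrays, 10.54, 10.58, 10.56 and 10.40 on the 1-week arrays, and 10.09, 10.19, 10.24 and 10.37 on the 2-week arrays. The 3 groups did not overlap, and each later stage lay below the one before. Set against ESCs, the level differed by -0.54 (SE 0.084, adjusted p = 0.000171), or 1.45-fold lower, at 1 week and -0.83 (SE 0.084, adjusted p = 1.95e-06), or 1.78-fold lower, at 2 weeks, so both passed the adjusted p and missed the 2-fold minimum. The 1-week difference was -0.38 on arrays 1 and 2 and -0.69 on arrays 3 and 4. The 2-week EBs differed from the 1-week EBs by -0.30 (adjusted p = 0.0220), a result that was lost in the authors' deposited log2 values (adjusted p = 0.371) with similar arrays as random blocks (adjusted p = 0.144) and without any 1 of 1-week arrays 1, 2 and 3 and 2-week array 1 (adjusted p = 0.0535 to 0.0635).

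The dimmer FGF2 probe (ILMN_1744693), assigned to the same transcript record, NM_002006, ran the same way with more scatter. It read 9.01, 8.92, 8.66 and 8.58 in ESCs, 8.52, 8.65, 8.28 and 8.45 in 1-week EBs, and 8.39, 7.67, 8.04 and 8.11 in 2-week EBs. The ESC and 1-week arrays overlapped on this probe (difference -0.31, adjusted p = 0.0885, or 0.0194 in a fit of these 2 groups with the array number as a replicate block), whereas the 2-week arrays lay below all ESC arrays (difference -0.74, adjusted p = 0.000663). In the deposited log2 values the 2-week difference was -1.04 with an adjusted p of 0.0663, and it rested in part on 2-week array 2, which read 6.29 there against 8.38 to 8.69 on the other 2-week arrays. Without that array it was -0.49 (adjusted p = 0.00263).

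FGF4, a ligand of early embryos, was not detected on any of the 12 arrays. Its single probe (ILMN_1677456) averaged 5.39 ± 0.19 in ESCs, 5.58 ± 0.11 at 1 week and 5.57 ± 0.15 at 2 weeks (SD, n = 4 each), with detection p-values between 0.0329 and 0.266. These values are at background, and no level or difference can be read from them.

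FGF8 and FGF17 belong to 1 subfamily of ligands, used for example at the primitive streak and at the boundary of midbrain and hindbrain. Neither was detected on any ESC array. FGF8 (ILMN_2345749) read 5.34, 5.50, 5.47 and 5.58 in ESCs, 6.31, 5.96, 6.57 and 6.67 in 1-week EBs, and 7.40, 7.77, 7.63 and 7.41 in 2-week EBs. The 3 groups did not overlap, but only the 2-week arrays were detected, on 4 of 4, while the 1-week arrays narrowly missed detection with p-values of 0.0105 to 0.0277.

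FGF8 rose in 2-week EBs against ESCs by 2.08 (SE 0.14, adjusted p = 3.28e-08). As FGF8 was undetected in ESCs, this is a bound of at least 1.38-fold on the measured scale. Against 1-week EBs it rose by 1.18 (SE 0.14, adjusted p = 7.52e-05), at least 1.67-fold, with differences of 1.46 on arrays 1 and 2 and 0.90 on arrays 3 and 4. That call was lost when the difference shrank to 0.78 in the deposited log2 values, 0.68 without background correction and 0.92 with an offset of 50, all still past the adjusted p (0.00547, 7.19e-05 and 4.60e-05). The 1-week difference from ESCs was 0.91 (adjusted p = 0.00015) between groups in which the probe was undetected on every array, so no fold is given. Without 1-week array 2 that difference was 1.05 and would have been called. Without background correction the 2-week difference from ESCs was 1.15, still called.

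The other FGF8 probe (ILMN_1812517) was assigned to a different transcript record, NM_033164, and did not pass the filter. It read 5.68, 5.45, 5.99 and 5.74 in ESCs, 5.88, 6.13, 6.52 and 6.50 in 1-week EBs, and 7.07, 7.14, 7.23 and 7.11 in 2-week EBs. It was detected on 3 of the 4 2-week arrays and on no other, so the highest values lay in the same group as on the first probe.

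FGF17 (ILMN_1781390) was detected already at 1 week. It read 5.19, 5.28, 5.37 and 5.14 in ESCs, 7.34, 7.04, 7.21 and 7.28 in 1-week EBs, and 7.86, 8.14, 7.39 and 6.96 in 2-week EBs, and it was detected on all 8 EB arrays. FGF17 rose in 1-week EBs by 1.97 (SE 0.19, adjusted p = 2.55e-06), at least 1.09-fold, and in 2-week EBs by 2.34 (SE 0.19, adjusted p = 2.79e-07), at least 1.41-fold. Without background correction the differences were 1.09 and 1.34, and in the deposited log2 values 1.43 and 1.39, each still called.

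The 2-week FGF17 arrays were spread widely, with arrays 1 and 2 above all 1-week arrays and array 4 below them all. The difference between 2-week and 1-week EBs was 0.37 (adjusted p = 0.199), or 0.81 on arrays 1 and 2 and -0.07 on arrays 3 and 4, and it was -0.04 in the deposited log2 values. Leaving out each array gave 0.19 to 0.58, and the highest of these, without 2-week array 4, passed the adjusted p (0.0185). Whether FGF8 and FGF17 differ in this was not tested.

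Markers of cell types known to use these ligands were read in the same samples, and not all of them changed. Of 7 primitive streak markers none was detected in ESCs, and 5 were detected and higher in EBs of both ages (GSC and TBX6 stayed undetected). Their summed linear level was 271 to 275 in ESCs, 2154 to 2401 in 1-week EBs and 2061 to 2640 in 2-week EBs. None of the 8 midbrain-hindbrain boundary markers (EN1, EN2, PAX2, PAX5, PAX8, WNT1, GBX2 and LMX1B) passed the filter: 7 were undetected on every array, and GBX2 was detected on some 1-week arrays only. Of 9 neural progenitor markers, 4 were higher in EBs of both ages, with summed levels of 14671 to 16008.6 in ESCs, 12010.6 to 14274.5 at 1 week and 17248.7 to 22229.1 at 2 weeks, and SOX1 and ZIC1 undetected. The part of these cells in the FGF8 and FGF17 values was not tested.

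FGF19, an endocrine ligand that signals mainly through FGFR4 with a Klotho partner, rose in EBs of both ages, and its level was highest at 1 week. Its probe (ILMN_1760909) was detected on all 12 arrays and read 7.80, 7.61, 7.61 and 7.43 in ESCs, 9.77, 9.90, 9.78 and 9.81 in 1-week EBs, and 9.17, 9.24, 9.27 and 9.26 in 2-week EBs. The 3 groups did not overlap, and the EB arrays agreed within an SD of 0.06 at 1 week and 0.04 at 2 weeks. FGF19 rose in 1-week EBs by 2.20 (SE 0.078, adjusted p = 7.90e-11), or 4.61-fold, and in 2-week EBs by 1.63 (SE 0.078, adjusted p = 1.11e-09), or 3.09-fold, against ESCs. From 1 to 2 weeks the difference was -0.58 (95% interval -0.75 to -0.41, adjusted p = 0.000204), a 1.49-fold lower level that passed the adjusted p and missed the 2-fold minimum.

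Endoderm and its derivatives are known sources of FGF19. Of 6 endoderm markers none was detected in ESCs and 5 were higher in EBs of both ages, with GATA4 undetected throughout, and summed levels were 203.7 to 206.6 in ESCs, 2215 to 2407 at 1 week and 2385 to 3034 at 2 weeks. Of 8 liver and yolk sac markers, 7 were higher in EBs of both ages, with summed levels of 809 to 881 in ESCs, 24351 to 25129 at 1 week and 28136.5 to 32282.6 at 2 weeks, and TF undetected. The part of these cells in the FGF19 values was not tested.

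FGF13, an intracellular relative of the ligands that binds sodium channels and microtubules, showed no difference from ESCs that passed the test. Its detected probe (ILMN_1671777) read 9.99, 9.77, 9.64 and 9.64 in ESCs, 9.90, 9.80, 9.88 and 9.93 in 1-week EBs, and 9.73, 9.46, 9.73 and 9.65 in 2-week EBs. Against ESCs it differed by 0.12 (95% interval -0.08 to 0.32, adjusted p = 0.309) at 1 week and -0.12 (95% interval -0.32 to 0.08, adjusted p = 0.277) at 2 weeks, so a 2-fold change lay outside both intervals. The 2-week sign was not settled, since the deposited log2 values gave 0.09. The EB stages did not overlap but differed by only -0.24 (adjusted p = 0.083). The other FGF13 probes (ILMN_1690984 and ILMN_1653826) were undetected on all arrays.

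**Figure D2:**
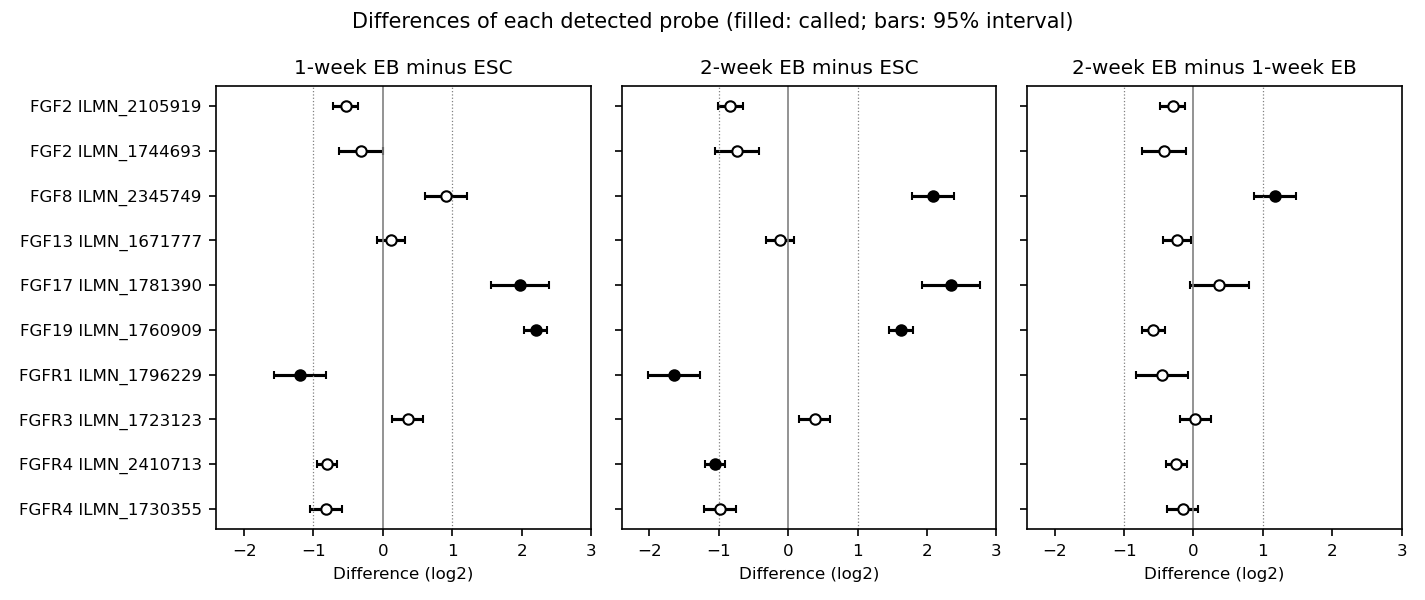
Log2 difference of each detected probe (points) with its 95% interval (bars) for 1-week EBs minus ESCs, 2-week EBs minus ESCs and 2-week minus 1-week EBs, filled where called. Dotted lines mark the 2-fold minimum. FGF8, FGF17 and FGF19 lie to the right and FGFR1 and FGFR4 to the left of 0 against ESCs, while between the EB stages only FGF8 is filled.

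FGFR1, a receptor that binds FGF2 strongly, was the only tested receptor called at 1 week, and it was lower in EBs of both ages than in ESCs. Its detected probe (ILMN_1796229) read 9.77, 9.61, 10.35 and 10.37 in ESCs, 8.55, 8.80, 8.997 and 8.98 in 1-week EBs, and 8.16, 8.57, 8.46 and 8.33 in 2-week EBs. All EB arrays lay below all ESC arrays, and within ESCs arrays 3 and 4 stood above arrays 1 and 2.

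FGFR1 fell in EBs of both ages, with a difference from ESCs of -1.197 (SE 0.17, adjusted p = 8.67e-05), or 2.29-fold, at 1 week and of -1.65 (SE 0.17, adjusted p = 2.88e-06), or 3.13-fold, at 2 weeks. Within arrays 1 and 2 the differences were -1.02 and -1.33, and within arrays 3 and 4 they were -1.37 and -1.97, past 2-fold in each pair of array numbers. The 1-week and 2-week arrays overlapped, with a difference of -0.45 (adjusted p = 0.0803) that passed the adjusted p under some settings, for example median scaling (-0.55, adjusted p = 0.0293). The other FGFR1 probe (ILMN_1729369) was undetected on all arrays.

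FGFR4, the main receptor of FGF19, was lower in EBs by both detected probes. The brighter (ILMN_2410713, NM_213647) read 10.12, 10.05, 10.23 and 10.17 in ESCs, 9.30, 9.48, 9.29 and 9.28 in 1-week EBs, and 9.11, 9.09, 9.11 and 9.04 in 2-week EBs. The dimmer (ILMN_1730355, NM_022963) read 8.66, 8.52, 8.90 and 8.80 in ESCs, 7.81, 7.91, 8.05 and 7.83 in 1-week EBs, and 7.98, 7.55, 7.76 and 7.68 in 2-week EBs. On both probes every EB array lay below every ESC array, and only the brighter also separated 1-week from 2-week EBs.

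By the brighter probe FGFR4 differed from ESCs by -0.81 (SE 0.068, adjusted p = 5.74e-07), or 1.75-fold, in 1-week EBs, short of 2-fold. In 2-week EBs it fell by 1.05 (SE 0.068, adjusted p = 2.31e-08), or 2.07-fold, with differences of -0.99 on arrays 1 and 2 and -1.12 on arrays 3 and 4. This value was close to the minimum and dropped under it with median scaling (-0.996), in the deposited log2 values (-0.89) and without background correction (-0.94). The dimmer probe gave -0.82 (adjusted p = 2.90e-05) and -0.98 (adjusted p = 3.55e-06), both short of 2-fold. It was called at 2 weeks without ESC array 2 (-1.04) or 2-week array 1 (-1.06), and in the deposited log2 values (-1.18). The last call rested on 2-week array 2, which read 6.43 there against 8.01 to 8.25 on the other 2-week arrays, and without it the difference was -0.76 (adjusted p = 0.000173). Between EB stages the probes gave -0.25 (adjusted p = 0.0198) and -0.16 (adjusted p = 0.322), and the first was lost in the deposited log2 values (adjusted p = 0.487), with similar arrays as random blocks (adjusted p = 0.179) and without 1-week array 2 (adjusted p = 0.0650) or 2-week array 4 (adjusted p = 0.0535). A further FGFR4 probe (ILMN_2241412) was undetected on all arrays.

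FGFR3, a receptor of neural and skeletal development, did not share this direction. Its detected probe (ILMN_1723123) read 11.71, 11.69, 11.74 and 11.87 in ESCs, 12.17, 12.33, 11.94 and 12.001 in 1-week EBs, and 11.99, 11.98, 12.26 and 12.30 in 2-week EBs. All EB arrays lay above all ESC arrays, and the EB stages overlapped.

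The FGFR3 difference from ESCs was 0.36 (SE 0.10, adjusted p = 0.0114), or 1.28-fold, in 1-week EBs and 0.38 (SE 0.10, adjusted p = 0.00618), or 1.30-fold, in 2-week EBs, both under the 2-fold minimum. It was 0.55 on arrays 1 and 2 and 0.16 on arrays 3 and 4 at 1 week, and 0.29 and 0.48 on these arrays at 2 weeks. The adjusted p was 0.153 at 1 week and 0.107 at 2 weeks in the deposited log2 values (0.0369 and 0.00884 there without 2-week array 2), and 0.0653 at 2 weeks with median scaling. The EB stages differed by 0.02 (95% interval -0.20 to 0.25, adjusted p = 0.907), with the sign turned under median scaling (-0.12). The other FGFR3 probe (ILMN_1651966) was undetected on all arrays.

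The receptors' changes were also set against each other within each array, which cancels any scaling shared by an array's probes. The difference between 2 receptors' log2 values was compared between groups with an exact two-sided permutation test. With 4 arrays per group it cannot give a p under 0.0286, and p-values were adjusted over the 9 tests. The test treats the arrays of a group as independent, although arrays 1 and 2, and 3 and 4, were alike in ESCs and 1-week EBs. In ESCs, FGFR3 minus FGFR1 read 1.94 and 2.08 on arrays 1 and 2 against 1.39 and 1.49 on arrays 3 and 4. These p-values may therefore be too small. FGFR3 minus FGFR1 was larger by 1.56 in 1-week EBs and by 2.03 in 2-week EBs than in ESCs (exact p = 0.0286 and adjusted p = 0.0429 each). FGFR4 minus FGFR3 was lower, at -1.16 and -1.43 (exact p = 0.0286 and adjusted p = 0.0429 each). FGFR4 minus FGFR1 differed by 0.39 in 1-week EBs (exact p = 0.171, adjusted p = 0.193) and by 0.60 in 2-week EBs (exact p = 0.0286, adjusted p = 0.0429). Between EB stages, FGFR4 minus FGFR3 differed by -0.27 (exact p = 0.0286, adjusted p = 0.0429), FGFR3 minus FGFR1 by 0.47 (exact p = 0.0857, adjusted p = 0.110) and FGFR4 minus FGFR1 by 0.20 (exact p = 0.257, adjusted p = 0.257). With median scaling, in the deposited log2 values and without background correction the adjusted p of the contrasts with ESCs that passed was 0.0514 to 0.103, and that of FGFR4 minus FGFR3 between EB stages was 0.184 to 0.624. Over all settings run, those leaving out an array included, FGFR3 minus FGFR1 differed from ESCs by 1.41 to 1.67 at 1 week and 1.67 to 2.15 at 2 weeks, and FGFR4 minus FGFR3 by -1.21 to -1.07 and -1.49 to -1.22. Each passing contrast also lost the adjusted p in some of the runs that left out an array (54 of 117 values over the 9 contrasts). The p-values are adjusted together, so a rise in 1 contrast can take the others past 0.05.

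**Figure D3:**
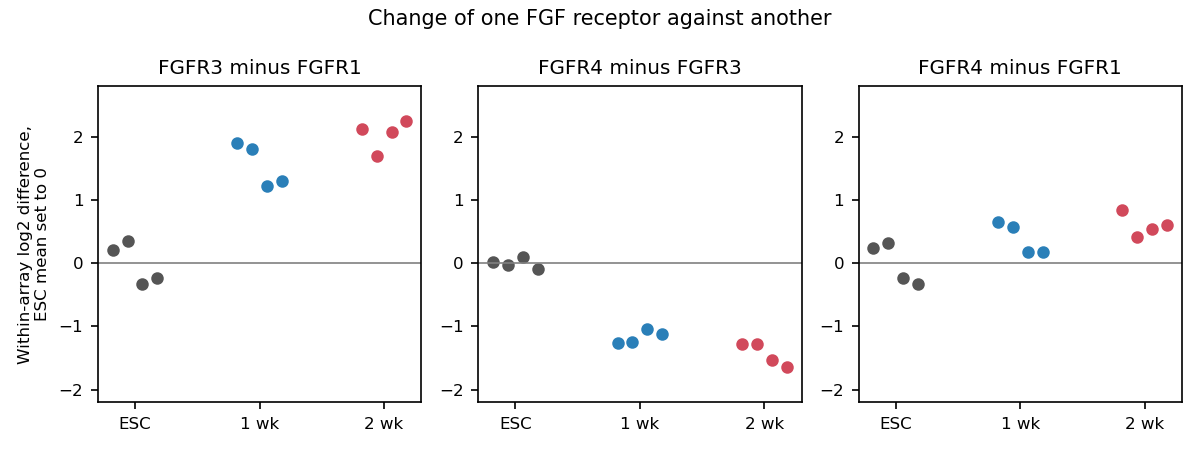
Within-array log2 difference between a pair of FGF receptor probes on each array (points, arrays 1 to 4 from left to right), with the ESC mean of each pair set to 0. FGFR3 moves up against FGFR1 and FGFR4 moves down against FGFR3 in both EB groups, by 1.56 and 2.03 and by -1.16 and -1.43, while FGFR4 differs from FGFR1 by 0.39 and 0.60.

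ESRP1 and ESRP2 regulate splicing of the FGF receptors' ligand-binding domain, and those isoforms were not analysed here. Of 8 splice regulators listed, 5 could be tested. None was called in 1-week EBs, and ESRP1, which favours the epithelial receptor forms, fell in 2-week EBs by 1.33 on the log2 scale (2.51-fold, adjusted p = 8.33e-08). Its 1-week difference was -0.48 (adjusted p = 0.00131). Between the EB stages it was -0.85 (adjusted p = 6.06e-05). The counts, 0 and 1 of the 5 regulators, stand against 9.16% called over all genes at 1 week and 14.3% (6.02% lower) at 2 weeks. Of 6 epithelial markers, 2 were higher in EBs of both ages and none lower, with summed levels of 36143 to 41156 in ESCs, 52805 to 58869 at 1 week and 44966 to 48049 at 2 weeks, and CLDN4 undetected. The part of these cells in the ESRP1 values was not tested.

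Of 13 other secreted FGF ligands, all with a named probe, FGF9 was the only 1 to pass the filter. FGF9, a ligand with roles in mesenchyme and gonad, was undetected in ESCs. Its difference was 0.92 (adjusted p = 2.47e-05) in 1-week EBs, where it was detected on 2 of 4 arrays, and it rose in 2-week EBs by 2.00 (adjusted p = 7.06e-09), at least 1.67-fold. It also rose by 1.08 (adjusted p = 3.35e-05) in 2-week against 1-week EBs. Of the 3 other intracellular FGF homologous factors, FGF11 fell 2.67-fold at 1 week (-1.42, adjusted p = 3.55e-08) and 2.66-fold at 2 weeks (-1.41, adjusted p = 2.23e-08). FGF12 differed by -0.42 and -0.46 by its brightest probe, under the 2-fold minimum, although another FGF12 probe gave -0.01 and 0.28. FGF14 did not pass the filter.

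Among 14 coreceptors, decoys and carriers, 6 were tested. Of these, 3 were higher and none lower in 1-week EBs, and 4 were higher and none lower in 2-week EBs. Over all genes, 6.09% were higher and 3.07% lower at 1 week, and 8.27% and 6.02% at 2 weeks. The median difference of the 6 tested genes was 1.19 and 1.58, against 0.01 and -0.02 over all genes. The Klotho genes KL and KLB were on the list but not among the 6, so their levels were not tested. FLRT2 and FLRT3 encode membrane proteins that bind FGF receptors. FLRT2 rose by 2.37 (5.16-fold, adjusted p = 1.07e-10) at 1 week and by 2.90 (7.45-fold) at 2 weeks, and FLRT3 by 2.12 (4.34-fold) and 2.87 (7.33-fold, adjusted p = 8.31e-13). NCAM1, an adhesion molecule that can engage FGF receptors, was detected on 3 of 4 ESC arrays and rose 2.67-fold and 2.996-fold. CDH2, N-cadherin, was the further gene called at 2 weeks (1.58, adjusted p = 3.05e-10), and is named after its value was seen. FGFRL1, a receptor-like protein that lacks the kinase domain, differed by -0.38 and -0.86, under the 2-fold minimum, and GLG1, a Golgi glycoprotein that binds FGFs, by -0.05 and -0.06.

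Heparan sulfate, the sugar cofactor of FGF binding, is carried by core proteins of which 10 of 13 were tested. TGFBR3, betaglycan, which carries such chains and also binds TGF-beta ligands, rose 5.12-fold in 1-week EBs (2.36, adjusted p = 5.90e-07) and 11.2-fold in 2-week EBs (3.49, adjusted p = 6.91e-09). It was the only core protein of the 10 called at 1 week, and GPC6 joined it at 2 weeks (1.14, adjusted p = 1.99e-06), although another GPC6 probe gave -0.02. These counts, 1 and 2 of the 10, stand against 9.16% and 14.3% called over all genes. None of the 10 fell, against 3.07% and 6.02% of all genes. Their median difference was 0.06 at 1 week and 0.47 at 2 weeks. In 2-week against 1-week EBs, TGFBR3 (1.13, adjusted p = 0.00147) and GPC3 (1.06, adjusted p = 5.43e-05) were higher.

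Of 20 enzymes that build or edit heparan sulfate, 12 were tested. At each EB stage 3 of them were higher and none lower than in ESCs, with a median difference of 0.30 and 0.32. Over all genes, 6.09% were higher and 3.07% lower at 1 week, and 8.27% and 6.02% at 2 weeks. HS3ST1, a 3-O-sulfotransferase, was undetected in ESCs and rose at least 2.67-fold in 1-week and at least 3.12-fold in 2-week EBs. SULF1, an extracellular enzyme that removes 6-O-sulfates, was also undetected in ESCs and rose at least 3.66-fold and at least 5.04-fold. NDST1, an early sulfotransferase of the pathway, rose at 1 week (1.02, 2.03-fold, adjusted p = 5.30e-06). HS6ST2, which adds 6-O-sulfates, rose at 2 weeks (1.21, 2.31-fold, adjusted p = 0.000251). No enzyme of the 12 was called between the EB stages, against 1.38% of all genes.

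Mesenchymal cells are rich in matrix proteoglycans, and their markers moved in the same samples. Of 8 mesenchyme markers, 7 were higher in EBs of both ages, with COL3A1, LUM and DCN undetected in ESCs, and summed levels were 3964 to 5899 in ESCs, 45760 to 62707 at 1 week and 92576 to 109348 at 2 weeks. The part of these cells in the changes of the coreceptor and heparan sulfate genes, and of FGF9, was not tested.

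Inside the cell, 16 of 26 adaptors and members of the RAS-ERK cascade and its PI3K branch were tested, and 1 was higher at 1 week and 2 at 2 weeks, with none lower, against 9.16% and 14.3% called over all genes. PIK3R1, the regulatory subunit of PI3K, rose by 1.82 (3.53-fold) and 2.23 (4.69-fold), and the kinase AKT1 rose at 2 weeks by 1.06 (2.09-fold, adjusted p = 4.49e-07). The other 14 were not called in any comparison, and the list's median difference was 0.28 and 0.29. Of 13 tested feedback and target genes, 2 rose and 2 fell by 1 week, and 2 rose and 3 fell by 2 weeks. Over all genes, 6.09% rose and 3.07% fell by 1 week, and 8.27% rose and 6.02% fell by 2 weeks. DUSP6, an ERK phosphatase, rose by 1.32 and 1.27, the ETS transcription factor ETV5 rose at 1 week by 1.09 (2.13-fold), and DUSP4, a related phosphatase that was undetected in ESCs, rose at 2 weeks by at least 1.05-fold. The immediate early genes fell, EGR1 with differences of -1.75 and -4.16 and FOS with -2.21 and -3.99, and the ERK inhibitor SPRY4 fell at 2 weeks (-1.48). EGR1 and FOS were also lower in 2-week than in 1-week EBs, with differences of -2.41 and -1.78.

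**Figure D4:**
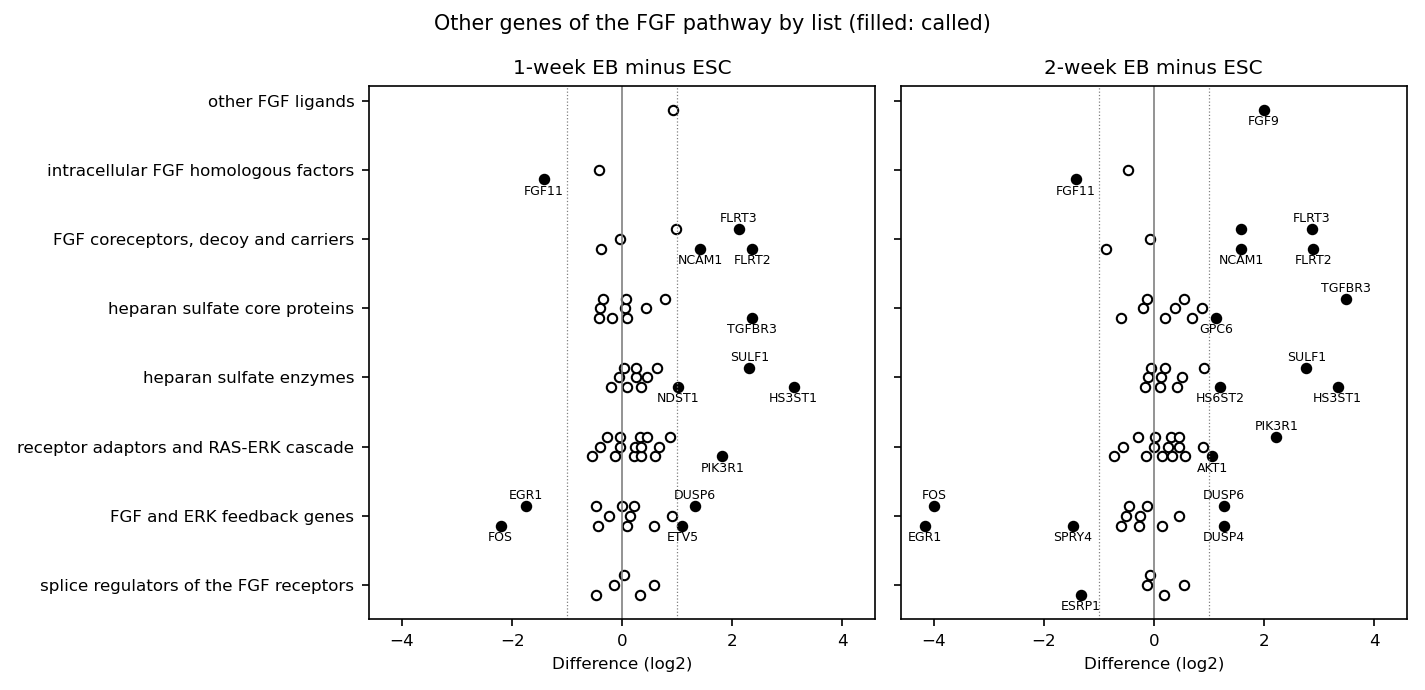
Log2 difference from ESCs of every tested gene of 8 FGF pathway lists (points, spread vertically for legibility) in 1-week EBs and 2-week EBs, filled where called, with dotted lines at the 2-fold minimum. Filled points of the coreceptor and heparan sulfate lists all lie to the right, those of the feedback list lie on both sides, and the filled point without a name at 2 weeks is CDH2 at 1.58.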

How the data were processed

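Total RNA of 12 arrays was compared in 3 labelled groups of 4. Per the file headers, the deposited non-normalised table holds 1 intensity and 1 detection p-value per probe and array; these p-values moved in steps of 1 in 759. A second deposited table holds log2 values. The sources used here do not give its processing, the scanner software or the background handling. It was used as an alternative only. Its columns had a median of 6.68 and correlated with that array's log2 signal at 0.9976 or more on 11 arrays and at 0.938 on 2-week array 2. All per-sample columns were used.

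Signals were processed with neqc of limma 3.58.1 in R 4.3.3 (background from detection p-values, offset 16, quantile normalisation, log2). Offsets and background correction shrink differences of dim probes, and quantiles remove any shift shared by most transcripts. Probes detected (detection p-value under 0.01) on 4 or more of 12 arrays were kept and fitted together with lmFit and eBayes on all 12 arrays, with two-sided tests. A gene was represented by its brightest kept probe. Where all arrays of a group left a probe undetected, only a bound exists: the fold is taken against the higher of its own value and the lowest detected value of each array, a floor between 6.67 and 7.28 on the log2 scale. The fit was tested on simulated data with independent noise on every array, which cannot show how it behaves where arrays resemble each other.

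Names came from the platform annotation (27578 probes with 1 symbol, 13 with several, 21212 unnamed here), of which 27541 matched RefSeq by Entrez ID. Promoter sequences and their coordinates are RefSeq's, on GRCh38.p14. The members and lists were chosen with earlier results of these data known. The rule for named genes took all members, up to 3 called genes with the largest rise and 3 with the largest fall per list and comparison, and the 2 genes nearest to each called member. Alternatives were another normalisation, background correction, offset, filter, blocks of arrays, fits of 2 groups and leaving out each array. Deviations from the group means correlated at 0.14 to 0.25 in all 4 same-numbered pairs of ESC and 1-week arrays. Exchanged numbers within arrays 1 and 2, or 3 and 4, gave 0.13 to 0.26, so the data do not single out number pairs. The fit reported used the groups alone, and the array number served as a block in alternatives only. Same-numbered pairs with 2-week arrays gave -0.095 to 0.15. The number of arrays limits the precision.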

Additional observations from a re-analysis of the deposited data

Results flagged for a closer look

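FGFR4 by its brighter probe (ILMN_2410713) read 9.48 on 1-week array 2, while the other 1-week arrays read 9.28 to 9.30. Its distance to the nearest of them was 0.869 of the group's whole range, above Dixon's 95% critical value for 4 samples. It was the only 1 of 30 sets of 4 arrays to do so, and chance alone gives about 5% of such sets. The 1-week value was still below every ESC array.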

How the results depend on the processing

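Of 744 differences of the member probes under other settings, 725 kept direction and call, 8 lost a call, 4 gained one and 7 changed sign. The adjusted p alone was lost in 17 and gained in 20. The receptor contrasts gave 36 values with all arrays, of which 18 lost the adjusted p, and 117 with an array left out, of which 54 lost it. Among the sign changes, FGF13 in 2-week EBs against ESCs was 0.086 in the deposited log2 values, and FGF17 in 2-week against 1-week EBs was -0.038 there, against 0.37 in the values reported. FGFR3 in 2-week against 1-week EBs was -0.12 with median scaling and -0.035 to 0.096 when each array was left out, below 0 without array 3 or 4 of either EB group. The number of tested genes or probes called in 2-week against 1-week EBs, 1 (FGF8), was 0 in the deposited log2 values, without background correction and with an offset of 50, because the FGF8 difference fell under 2-fold. There limma's unadjusted p was under 0.05 for 2, 6 and 6 of the 8 genes and for 2, 7 and 7 of the 10 probes. In the deposited values without 2-week array 2 (chosen after seeing the data), 0 genes and 0 probes were called between the EB stages, with 2 of each at an unadjusted p under 0.05, and over all probes 915 were called in 1-week EBs against ESCs and 105 between the EB stages. Over all probes, 1409 were called in 1-week EBs against ESCs, 885 in the deposited values and 832 without background correction. The 2240 called in 2-week EBs against ESCs became 1402 without background correction. The 204 called between the EB stages became 107 in the deposited values, 89 without background correction and 133 with an offset of 50. The cause was not tested. Leaving out each array in turn gave 3 to 4, 5 and 1 called genes in the 3 comparisons, and 3, 5 and 1 without the dim 2-week array 2. Median scaling moved the median of all genes to 0.13, 0.00 and -0.12.

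Same-numbered ESC and 1-week arrays deviated together, but arrays 1 and 2, and 3 and 4, did so under exchanged numbers too (0.13 to 0.26), and 5 of all 12 arrays correlated best with their own number. With the replicate number as a block, over all arrays or in fits of 2 groups (the latter chosen after seeing the data), 3, 5 and 1 genes were called. The block changed no call of a member probe. In the fit of all arrays the FGFR1 difference between EB stages passed the adjusted p (0.0407). Arrays 1 and 2 against 3 and 4 as a fixed block, chosen after seeing the data, also left 3, 5 and 1 genes called. FGF4 and the dim probes lie at background, where no difference can be read.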

Other observations

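Other genes followed the called members closely over the 12 arrays, by the root mean square difference of their centred log2 levels. This is a description, since the groups set most of it. FGFR4 was nearest to CXorf38 (0.0734) and TMEM108 (0.0812), which differed from ESCs by -0.74 and -0.75 in 1-week EBs and by -0.93 and -1.07 in 2-week EBs. FGFR1 was nearest to DUSP8, a phosphatase of MAP kinases (0.134), and KLF6, a zinc finger transcription factor (0.138), which fell, with differences of -1.37 and -1.35 at 1 week and -1.60 and -1.78 at 2 weeks. FGF8 was nearest to CDKN1C, an inhibitor of cyclin-dependent kinases (0.160), and EPHA4, an ephrin receptor (0.166), which rose by 2.12 and 2.17 at 2 weeks. FGF19 was nearest to CYP1B1, a cytochrome P450 enzyme (0.172), and NTS, the neurotensin precursor (0.196). They differed from ESCs by 2.02 and 1.95 at 1 week and by 1.27 and 1.62 at 2 weeks. FGF17 was nearest to CD44, the hyaluronan receptor (0.203), and BHLHE22, a neural transcription factor (0.219).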
